A study of Mus musculus with 6 samples.

Results

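The genes described here encode angiopoietin-like proteins, the lipases they act on, and the proteins that assemble and take up triglyceride-rich lipoproteins in the liver. They are 9 genes, Angptl4, Angptl6, Angptl8, Lpl, Lipc, Lmf1, Mttp, Tm6sf2 and Vldlr, taken by symbol from 54232 genes in a count table, and all 9 passed the low-count filter of the test. Liver RNA was sequenced in 3 libraries from Nogo-/- mice and 3 from WT littermates, all 8 weeks old and fed normal chow; the labels do not say whether a library is 1 animal's. Nogo is the product of Rtn4, a reticulon that shapes the endoplasmic reticulum. The labels do not say which part of Rtn4 is deleted, in which cells, or on what strain, and they give no sex. The series' title puts the question as the effect of losing Nogo on insulin signalling. The libraries are called knockout 1, 2 and 4 and wild type 2, 4 and 11, after the numbers in their titles. The 9 genes were chosen with the knockout and wild-type values of these data known, so their values and calls are a description and not independent evidence.

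Liver packs triglyceride into very-low-density lipoprotein (VLDL) on a scaffold of apolipoprotein B, with microsomal triglyceride transfer protein (Mttp) loading the first lipid and Tm6sf2 helping to enlarge the particle. In the circulation, lipoprotein lipase (Lpl) and hepatic lipase (Lipc) hydrolyse the triglyceride and phospholipid, after lipase maturation factor 1 (Lmf1) has helped them fold in the endoplasmic reticulum. Angptl4 and Angptl8 restrain lipoprotein lipase in different tissues and nutritional states. Angptl8 is a liver and fat hormone that feeding and insulin induce, whereas Angptl4 is induced by fasting.

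Angptl8 carried the largest difference among the 9 genes, and its promoter is therefore shown. It is the RefSeq window from 250 bases before to 50 bases after the start of the gene, chr9:21835260-21835559 (GRCm38.p6), plus strand. Capitals mark a repeat of the letters ATTGACC and their reverse complement around 5 other bases.
Angptl8 promoter: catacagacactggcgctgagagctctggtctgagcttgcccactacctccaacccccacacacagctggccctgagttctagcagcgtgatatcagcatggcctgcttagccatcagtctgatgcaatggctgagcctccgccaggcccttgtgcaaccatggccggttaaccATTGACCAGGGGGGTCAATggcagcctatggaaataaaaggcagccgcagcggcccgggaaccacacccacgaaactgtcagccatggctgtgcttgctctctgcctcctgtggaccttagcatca
The repeat begins at position −76 relative to the start. Searched on both strands as ATTGACC, any 5 bases and GGTCAAT, it occurred in 1 of 32851 promoter windows of the same length (0.00304%), which is this one. It was picked after the sequence had been read, so its presence here was certain and nothing is read from its rarity. Windows were present for 6 of the 9 genes, with 8 windows in all. The half-site AGGTCA of nuclear receptors, present in 16.3% of all windows, was found in 1 of the 8, at positions −88 and −76 of a Lipc window. The E-box CACGTG (7.15% of all windows), the direct repeat DR1 (0.0396%), the sterol response element SRE-1 (0.0913%) and TATAAA (13.6%) were found in 0 of the 8. No 2 motifs overlapped. These are letter matches, and the data hold no measurement of binding.

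The labels were checked on Rtn4, which stood at 4.63, 8.22 and 4.69 CPM (library-size-normalised counts, with TMM scaling) in knockout 1, 2 and 4, against 40.5, 52.8 and 56.0 CPM in wild type 2, 4 and 11. Library totals ran from 17568223 to 20902369 counts, and a floor of 3 counts equals 0.139 to 0.199 CPM. Of 8 hepatocyte markers tested, 0 were called, beside 17.0% of all tested genes. Albumin averaged 60726 CPM in knockout and 66835 CPM in wild type. The genotypes differed in their make-up: mitochondrially encoded genes took 28.6%, 19.7% and 11.8% of the counts in knockout 1, 2 and 4, against 6.90%, 6.17% and 6.71% in wild type 2, 4 and 11. Of 13304 tested genes, 17.0% were called at an adjusted p under 0.05 (edgeR's quasi-likelihood test, Benjamini-Hochberg), 8.76% higher and 8.29% lower in knockout. In 38.9% of tested genes the genotypes did not overlap.

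In knockout liver Angptl8, Lpl and Lmf1 rose and Mttp fell, while Angptl4, Angptl6, Lipc, Tm6sf2 and Vldlr were not called. That is 4 of 9 genes called, 3 higher and 1 lower, beside 17.0% of all tested genes. For the same 4, the knockout and wild-type libraries were fully separated, beside 38.9% of all tested genes. Of the 9 genes 2, 2 and 5 were called without knockout 1, 2 and 4, beside 5.9%, 7.2% and 29.4% of all tested genes. Without wild type 2, 4 and 11, 2, 2 and 4 of the 9 were called, beside 6.03%, 4.57% and 12.3%. The median log2 fold change of the 9 was −0.03, beside 0.01 for all tested genes. Since the 9 were chosen with this contrast known, nothing is read from these shares.

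**Figure D1:**
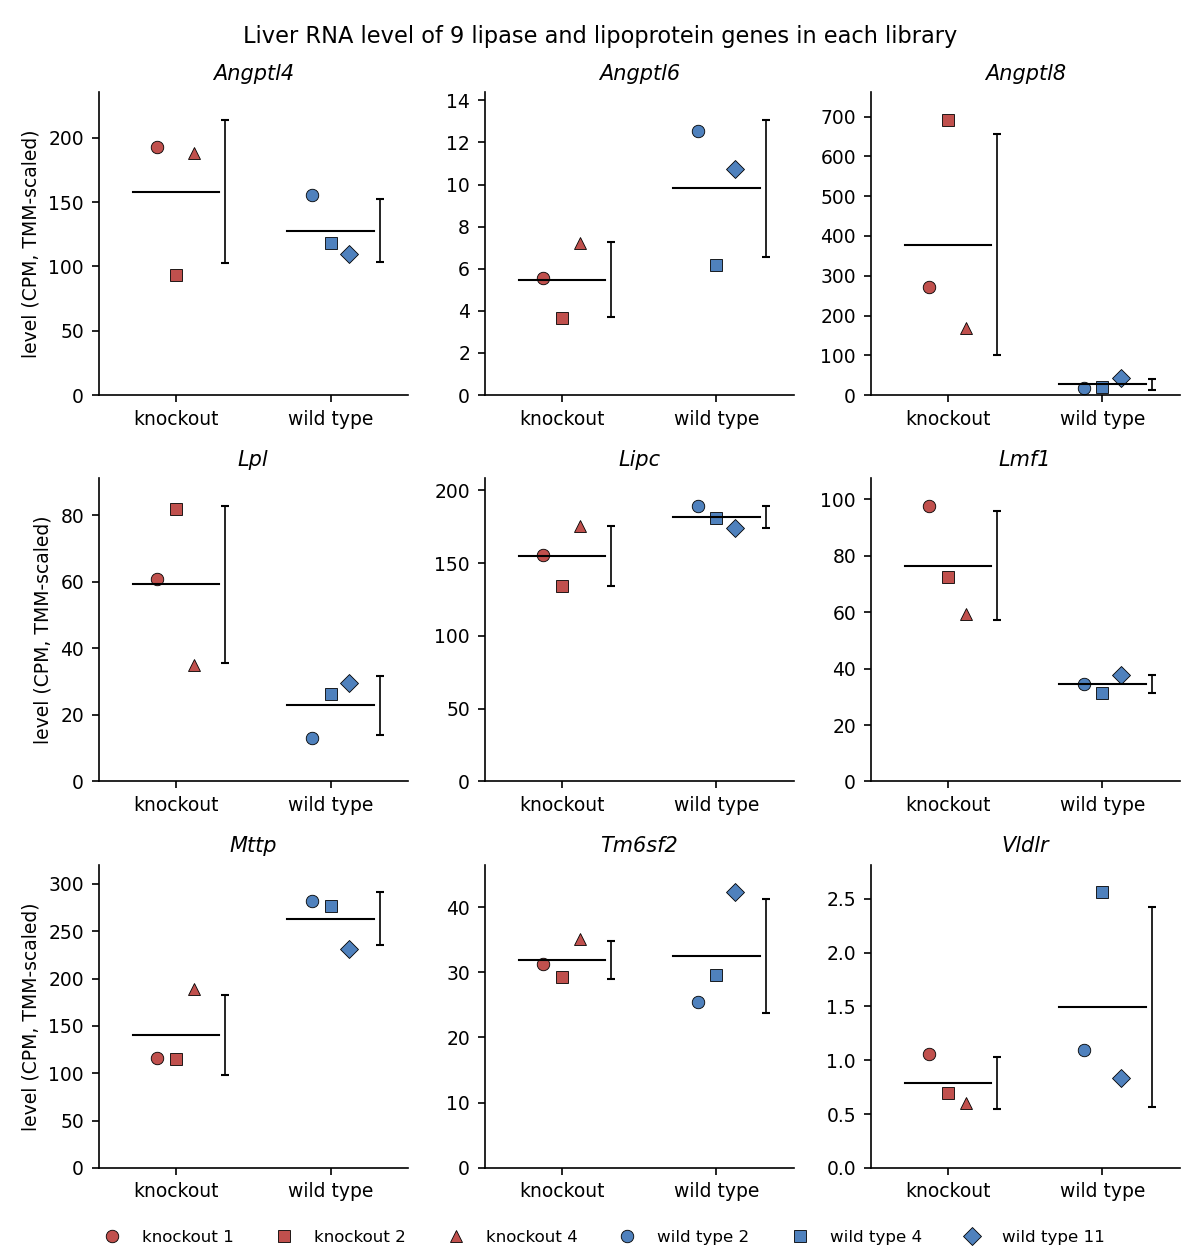
Level of each of the 9 genes in every library, in TMM-scaled CPM (vertical axes, each starting at 0), with knockout libraries on the left in red and wild-type libraries on the right in blue. Horizontal lines are means and error bars are SDs (n = 3 each); Angptl8, Lpl, Lmf1 and Mttp are the panels in which the red and blue points do not overlap.

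Among the angiopoietin-like genes, Angptl8 (ENSMUSG00000047822, chromosome 9, 21835510 to 21837347, plus strand, mm10) was raised in each knockout library, though to very different heights. Its level was 272, 693 and 169 CPM in knockout 1, 2 and 4, against 16.6, 21.4 and 43.2 CPM in wild type 2, 4 and 11. The lowest knockout level thus lay well above the highest wild-type level, and knockout 2 stood apart from its own group. The means were 378 ± 277 CPM in knockout and 27.1 ± 14.2 CPM in wild type (SD, n = 3 each). The log2 fold change was 3.80 ± 0.54 (SE), or 13.9-fold. Of all tested genes, 2 had a larger log2 fold change. Without knockout 2 the fold was 8.15 (log2 3.03), and Angptl8 was called in each of the 6 fits that left out 1 library. Angptl8 has no 50-base word in common with another annotated gene, but it lies inside Dock6, which runs on the opposite strand and shares 0 exon bases with it. Dock6, a guanine nucleotide exchange factor, averaged 24.3 ± 7.33 CPM in knockout and 17.7 ± 5.25 CPM in wild type, with no call (log2 fold change 0.46 ± 0.26).

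The balance of Angptl8 to Angptl4, the angiopoietin-like gene of fasting, was shifted in every knockout library. Per kilobase of exon, the ratio of Angptl8 to Angptl4 was 5.79, 30.3 and 3.67 in knockout 1, 2 and 4, against 0.437, 0.742 and 1.62 in wild type 2, 4 and 11. The groups did not overlap, as they did not for Angptl8 alone. Angptl4 was not called, so the ratio mainly restates the change of Angptl8.

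Angptl4 (chromosome 17, 33773750 to 33781830, minus strand) showed no shared direction among the knockout libraries. It stood at 193, 93.7 and 189 CPM in knockout 1, 2 and 4, against 156, 118 and 109 CPM in wild type 2, 4 and 11. Knockout 2 was the lowest of all 6 libraries and knockout 1 the highest, and the log2 fold change was 0.31 ± 0.27. The library with the most Angptl8 was therefore the one with the least Angptl4. Angptl6 (chromosome 9, 20873808 to 20879727, minus strand), a circulating factor linked to energy expenditure in mice, is expressed far lower. Its level was 5.56, 3.65 and 7.22 CPM in knockout 1, 2 and 4, against 12.5, 6.19 and 10.7 CPM in wild type 2, 4 and 11. Wild type 4 lay within the knockout range, and the log2 fold change of −0.85 ± 0.32 was not called; without knockout 4 it was called at −1.11. Of the exon bases of Angptl6, 16.8% (265 bases) also belong to exons of A230050P20Rik on the opposite strand. That gene rose, to 42.7 ± 7.81 CPM in knockout against 20.4 ± 3.08 CPM in wild type (log2 fold change 1.07 ± 0.20). The strand setting of the counting is not given in the sources used here, so reads in the 265 bases cannot be assigned to either gene.

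Among the lipases, Lpl (chromosome 8, 68880491 to 68907448, plus strand) was higher in knockout liver. This enzyme is made mainly in fat and muscle and, in adult liver, at a low level. The level was 60.8, 81.9 and 35.0 CPM in knockout 1, 2 and 4, against 12.9, 26.2 and 29.5 CPM in wild type 2, 4 and 11. The groups did not overlap, but knockout 4 lay close to wild type 11. The means were 59.2 ± 23.5 CPM in knockout and 22.9 ± 8.77 CPM in wild type, a log2 fold change of 1.37 ± 0.35, or 2.59-fold. The call was lost without knockout 1 (log2 fold change 1.35), knockout 2 (1.06), wild type 2 (1.077) or wild type 4 (1.47).

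Lpl is also a gene of macrophages and fat cells, and in a piece of liver more cells of a type and more RNA per cell cannot be told apart. Of 11 Kupffer cell and macrophage markers 0 were called, beside 17.0% of all tested genes. Their summed level was 233, 492 and 219 CPM in knockout 1, 2 and 4, against 305, 282 and 444 CPM in wild type 2, 4 and 11. The macrophage sums thus overlapped between genotypes. Among the knockout libraries they stood in the order of Lpl, highest in knockout 2. Among the wild types they did not, as Lpl was lowest in wild type 2 and the sum in wild type 4. Knockout 1 and 4 lay below every wild type in the sum and above every wild type in Lpl. Markers of T, B and NK cells were higher: 5 of 7 tested were called higher and 0 lower (71.4% called, beside 17.0% of all tested genes). Their summed level was low, 12.8 to 22.8 CPM in knockout and 5.08 to 6.46 CPM in wild type. The sums were 17.9, 22.8 and 12.8 CPM in knockout 1, 2 and 4, also in the order of Lpl. They were 5.08, 5.12 and 6.46 CPM in wild type 2, 4 and 11, again in the order of Lpl, though wild type 2 and 4 were nearly equal. The part of either cell type in the level of Lpl was not tested. Among fat cell markers Lep had 0 counts in all 6 libraries and Adipoq and Plin1 had 0 counts in the 3 knockout libraries. The summed level of the 7 fat cell markers was 9.21 to 18.5 CPM in knockout and 6.99 to 11.5 CPM in wild type, most of it Fabp4, which other cells also express. All 6 muscle markers were below the low-count filter. Their summed level was 1.79 CPM in knockout 1 and 0 to 0.279 CPM in the other libraries, and the part of muscle in the level of Lpl was not tested.

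Lipc (chromosome 9, 70798128 to 70952226, minus strand), the lipase that liver itself secretes and keeps on its sinusoids, was little changed. It stood at 155, 134 and 175 CPM in knockout 1, 2 and 4, against 189, 181 and 174 CPM in wild type 2, 4 and 11. Knockout 4 lay within the wild-type range and the other knockout libraries below it. The log2 fold change was −0.23 ± 0.17 and was not called.

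Lmf1 (chromosome 17, 25579085 to 25662826, plus strand), which both lipases need to fold, was higher in every knockout library. It stood at 97.6, 72.5 and 59.4 CPM in knockout 1, 2 and 4, against 34.6, 31.2 and 37.6 CPM in wild type 2, 4 and 11. The wild-type libraries lay close together and well below the lowest knockout library. The means were 76.5 ± 19.4 CPM in knockout and 34.5 ± 3.19 CPM in wild type, a log2 fold change of 1.15 ± 0.21, or 2.22-fold. Lmf1 was called in each of the 6 fits that left out 1 library. Its paralogue Lmf2 averaged 26.3 CPM in knockout and 20.2 CPM in wild type and was not called (0.38 ± 0.18, adjusted p = 0.157).

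Of the assembly genes, Mttp (chromosome 3, 138089854 to 138144968, minus strand) fell in knockout liver. It stood at 116, 116 and 189 CPM in knockout 1, 2 and 4, against 282, 277 and 231 CPM in wild type 2, 4 and 11. The groups did not overlap, and knockout 4 lay nearest to wild type. The means were 140 ± 42.5 CPM in knockout and 263 ± 27.8 CPM in wild type, a log2 fold change of −0.91 ± 0.23, so that wild type was 1.88-fold higher. The call was lost without knockout 1 (log2 fold change −0.79), knockout 2 (−0.79), wild type 2 (−0.87) or wild type 4 (−0.88). Trmt10a, on the opposite strand, shares 457 exon bases (7.36% of those of Mttp); it averaged 4.18 CPM in knockout and 2.88 CPM in wild type and was not called. P4hb, which encodes the protein disulfide isomerase subunit of the transfer protein, averaged 1120 CPM in knockout and 1167 CPM in wild type (−0.06 ± 0.21, adjusted p = 0.87).

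Tm6sf2 (chromosome 8, 70072924 to 70080066, plus strand) had the smallest log2 fold change of the 9. It stood at 31.3, 29.3 and 35.1 CPM in knockout 1, 2 and 4, against 25.5, 29.7 and 42.3 CPM in wild type 2, 4 and 11. All 3 knockout libraries lay within the wild-type range, and the log2 fold change was −0.03 ± 0.21. Its sign changed with the processing, as listed with the other limits.

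Vldlr (chromosome 19, 27216484 to 27254231, plus strand), the VLDL receptor of muscle and fat, was close to the limit of detection. Its counts were 16, 13 and 10 in knockout 1, 2 and 4, against 23, 48 and 18 in wild type 2, 4 and 11. These were 1.06, 0.698 and 0.602 CPM in knockout and 1.09, 2.56 and 0.836 CPM in wild type. Wild type 4 was the high library and the other wild types lay near the knockout libraries. The log2 fold change of −0.92 ± 0.50 was not called and was −0.31 without wild type 4.

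Per kilobase of exon, Angptl8 was first of the 9 in knockout and came after Lipc, Mttp and Angptl4 in wild type. In knockout, Angptl8 came first at 437 ± 321 RPKM (CPM per kilobase of exon), above Lipc at 72.0 ± 9.57 and Angptl4 at 44.7 ± 15.8 RPKM. Mttp at 22.6 ± 6.85 and Tm6sf2 at 16.8 ± 1.55 RPKM followed in knockout, then Lpl at 5.65 ± 2.25, Lmf1 at 5.63 ± 1.43 and Angptl6 at 3.46 ± 1.13 RPKM. Vldlr was last in knockout at 0.0781 ± 0.0240 RPKM. In wild type, Lipc came first at 84.4 ± 3.57 RPKM, then Mttp at 42.4 ± 4.48, Angptl4 at 36.1 ± 6.95, Angptl8 at 31.3 ± 16.4 and Tm6sf2 at 17.1 ± 4.59 RPKM. Angptl6 at 6.21 ± 2.07, Lmf1 at 2.54 ± 0.235, Lpl at 2.18 ± 0.837 and Vldlr at 0.149 ± 0.0924 RPKM closed the wild-type order (SD, n = 3 each). Neighbours whose libraries overlapped were Angptl4 with Mttp, Lpl with Lmf1 and Lmf1 with Angptl6 in knockout. In wild type they were Mttp with Angptl4, Angptl4 with Angptl8, Angptl8 with Tm6sf2 and Lmf1 with Lpl. The length counts every annotated exon base, 13589 for Lmf1 and 865 for Angptl8, so genes with long alternative exons are set too low.

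**Figure D2:**
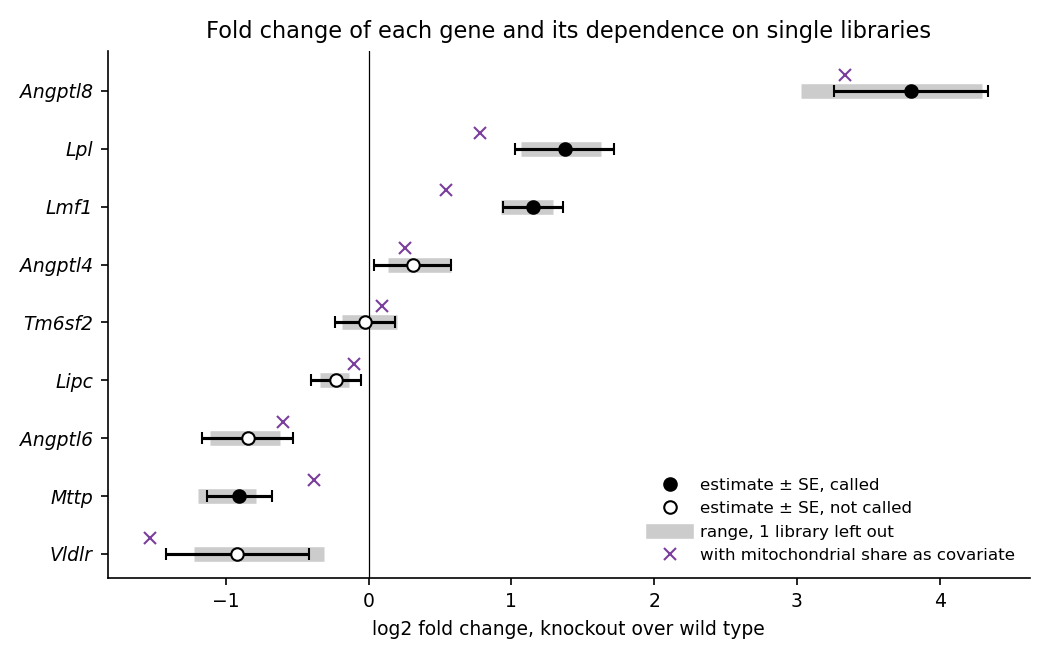
Log2 fold change, knockout over wild type, of each gene with its SE (edgeR); filled points were called and open points were not. Grey bars span the 6 fits that left out 1 library and crosses are the fit with the mitochondrial share as a covariate. Angptl8 lies near 3.80, Lpl at 1.37, Lmf1 at 1.15 and Mttp at −0.91.

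The size of the change differed between the knockout libraries. Against the wild-type mean on the log2 (CPM + 0.5) scale, Mttp stood at −1.17, −1.18 and −0.47 in knockout 1, 2 and 4. Lmf1 stood at 1.49, 1.07 and 0.78, Lpl at 1.47, 1.90 and 0.68, and Angptl8 at 3.42, 4.77 and 2.74. Knockout 4 was thus the nearest to wild type in all 4 genes, and it had the smallest mitochondrial share of the knockout libraries, 11.8% against 28.6% and 19.7%. Lmf1 followed the order of the shares, whereas Angptl8 and Lpl were highest in knockout 2. When the fit held the mitochondrial share as a covariate, the log2 fold changes were 3.34 ± 0.94 for Angptl8, 0.78 ± 0.60 for Lpl, 0.54 ± 0.24 for Lmf1 and −0.38 ± 0.29 for Mttp. In that fit 0 of the 9 genes, and 0 of all tested genes, were called (edgeR, 1 of the 9 and 1146 of all genes at an unadjusted p under 0.05; no other tool was run with it). All knockout shares lie above all wild-type shares, so genotype and mitochondrial share cannot be told apart fully. With knockout 4 alone against the 3 wild types, the values were 2.64, 0.61, 0.79 and −0.47 for Angptl8, Lpl, Lmf1 and Mttp, and 0 of the 9 were called, beside 0.178% of all genes.

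**Figure D3:**
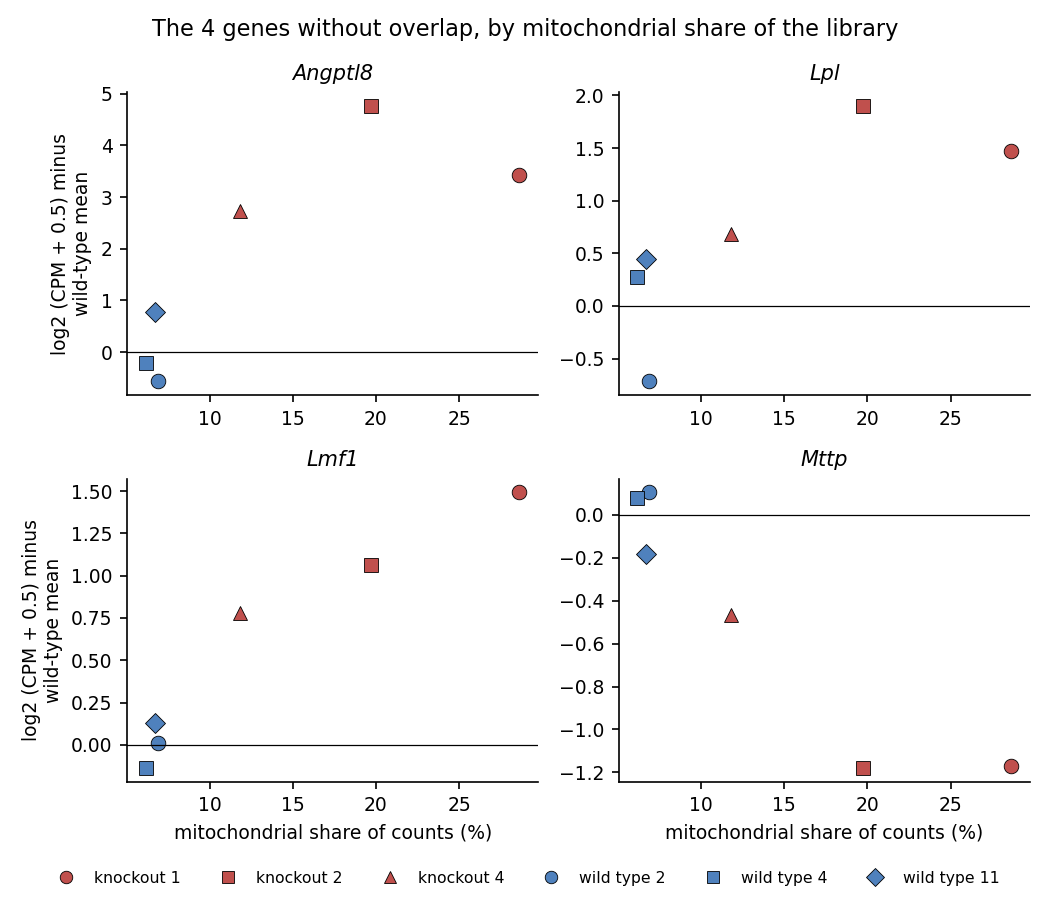
Change of Angptl8, Lpl, Lmf1 and Mttp in each library, as log2 (CPM + 0.5) minus the wild-type mean (vertical axis), against the share of the library's counts from mitochondrially encoded genes in percent (horizontal axis). Knockout libraries are red and wild-type libraries blue. Knockout 4, at 11.8%, is the red point nearest to the wild types in all 4 panels.

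The genes with the most similar pattern over the 6 libraries were found by the root mean square difference of these log2 changes, among 10955 genes of at least 1 CPM on average. For Angptl8 they were Obp2a (difference 0.90), Cnbd2 (0.99) and G0s2 (1.07). Obp2a encodes an odorant-binding lipocalin and G0s2 an inhibitor of the triglyceride lipase ATGL. In knockout 2, where Angptl8 stood at 4.77, Obp2a, Cnbd2 and G0s2 stood at 3.11, 2.83 and 2.22. Obp2a was also highest in knockout 2, but Cnbd2 was highest in knockout 1 (2.97). G0s2 was lowest in knockout 2, against 3.05 and 3.13 in knockout 1 and 4. None was thus a close match to Angptl8, whereas the differences listed for Lpl, Lmf1 and Mttp were at most 0.25. For Lpl the most similar genes were Fxyd5 (0.21), Plcb2 (0.23) and S100a9 (0.25). S100a9, a neutrophil gene, stood at 2.71, 5.21 and 2.23 CPM in knockout 1, 2 and 4. Its level was 0.617, 1.17 and 1.11 CPM in wild type 2, 4 and 11. For Lmf1 they were Sfi1 (0.05), Tmem205 (0.06) and Pgap2 (0.07). For Mttp they were Hat1 (0.05), Ddb1 (0.06) and Ldhd (0.07), the last encoding a mitochondrial lactate dehydrogenase. A small difference says only that these patterns are alike over 6 libraries that share the same 2 genotypes.

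Other genes of the same pathways were read from the same fit, in 9 lists that hold 125 genes, of which 118 were tested, 9 rose and 14 fell. That is 19.5% of the 118, beside 17.0% of all tested genes. Of 7 apolipoproteins that act on lipases, 3 rose and 0 fell (median log2 fold change 0.09), a share of 42.9% beside 17.0% of all tested genes. Apoc3, an inhibitor of lipoprotein lipase, averaged 5279 ± 1399 CPM in knockout and 2294 ± 310 CPM in wild type (edgeR, adjusted p = 0.012), and Apoc1, also an inhibitor, rose by 1.43 ± 0.26. Apoc2, the activator of the enzyme, rose at 3.36 ± 1.74 CPM in knockout against 0.823 ± 0.428 CPM in wild type (2.01 ± 0.48). Its value is uncertain, since 78.3% of its 50-base words occur in other annotated genes. The genes called higher in knockout thus include inhibitors, the enzyme Lpl and its folding factor and, with the uncertain value of Apoc2, an activator. Of the 6 fits that left out 1 library, Apoc2 was called in 3 and Lpl in 2.

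Of 13 genes of lipase maturation and capture, 3 fell and 0 rose (median −0.33), a share of 23.1% beside 17.0% of all tested genes. The count was 0 without knockout 1, knockout 2, wild type 2 or wild type 4. The 3 that fell were Canx, a chaperone that folds glycoproteins (−1.01 ± 0.26), and the convertases Pcsk6 (−0.81 ± 0.23) and Furin (−0.62 ± 0.18), which cleave lipases and angiopoietin-like proteins. Gpihbp1, which carries lipoprotein lipase across capillary walls, was not called at −0.55 ± 0.24 (adjusted p = 0.135) and was named after its value was seen. Of 8 liver endothelial markers 4 were called lower and 0 higher, with a summed level of 99.8 to 167 CPM in knockout and 171 to 229 CPM in wild type, and their part in the level of Gpihbp1 was not tested. Of 7 other lipase family genes tested, 1 fell and 0 rose (14.3% called, beside 17.0% of all tested genes). The 1 that fell was Lipa, the lysosomal acid lipase (−0.76 ± 0.17).

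Of 25 genes of VLDL assembly and secretion, 2 fell and 1 rose (median −0.28), a share of 12.0% beside 17.0% of all tested genes. Ces1d, a carboxylesterase that mobilises stored triglyceride for VLDL, averaged 254 ± 78.8 CPM in knockout and 870 ± 261 CPM in wild type (−1.77 ± 0.28, edgeR, adjusted p = 0.00578). Mia2, an export receptor for large cargo of the endoplasmic reticulum, fell as well (−0.98 ± 0.20), and Smlr1 rose (0.63 ± 0.18, edgeR, adjusted p = 0.0373). Smlr1 lost its call with scaling by library totals (0.45, adjusted p = 0.159) and with no low-count filter (adjusted p = 0.0541), and library totals gave 4 falls and 0 rises in the list. Apob, the scaffold of the particle, averaged 3633 CPM in knockout and 4338 CPM in wild type and was not called (−0.26 ± 0.19, adjusted p = 0.378); it was named after its value was seen. Of 11 tested lipoprotein receptor genes, 2 fell and 0 rose (18.2% called, beside 17.0% of all tested genes). The 2 were Lsr, the lipolysis-stimulated receptor (−1.91 ± 0.30), and Scarb1, the receptor for high-density lipoprotein (−0.80 ± 0.22). Lsr has 31.5% of its 50-base words in other annotated genes.

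Of 22 transcription factors linked to the 9 genes, 2 fell and 1 rose (13.6% called, beside 17.0% of all tested genes). Ppara, which induces Angptl4 in fasting, averaged 23.5 ± 2.23 CPM in knockout and 69.5 ± 22.3 CPM in wild type (−1.57 ± 0.24, edgeR, adjusted p = 0.00578). Nr1i2, the xenobiotic receptor PXR, rose (0.60 ± 0.19, edgeR, adjusted p = 0.0485). Nr1i2 lost its call with library totals (0.42, adjusted p = 0.164) and with no low-count filter (adjusted p = 0.0728), and library totals gave 3 falls and 0 rises in the list. Mlxipl, the glucose-responsive factor ChREBP, stood at 489, 271 and 207 CPM in knockout 1, 2 and 4, against 184, 162 and 175 CPM in wild type 2, 4 and 11. It was not called (0.89 ± 0.28, adjusted p = 0.0535) and was named after its value was seen. Of 15 PPAR-alpha target genes 1 fell and 0 rose (6.67% called, beside 17.0% of all tested genes). The 1 that fell was the peroxisomal enzyme Ehhadh (−1.02 ± 0.24). Of 16 genes induced by feeding, insulin or ChREBP, 3 rose and 3 fell, a share of 37.5% beside 17.0% of all tested genes. The 6 calls became 2 without knockout 1, knockout 2 or wild type 2, 3 without wild type 4 and 4 without wild type 11. The 6 called genes included G0s2 (2.82 ± 0.32) and Txnip (1.25 ± 0.28), which rose, and the lipogenic enzymes Acly (−1.52 ± 0.20) and Me1 (−1.02 ± 0.24), which fell. Me1 has 28.3% and Txnip 15.7% of their 50-base words in other annotated genes.

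**Figure D4:**
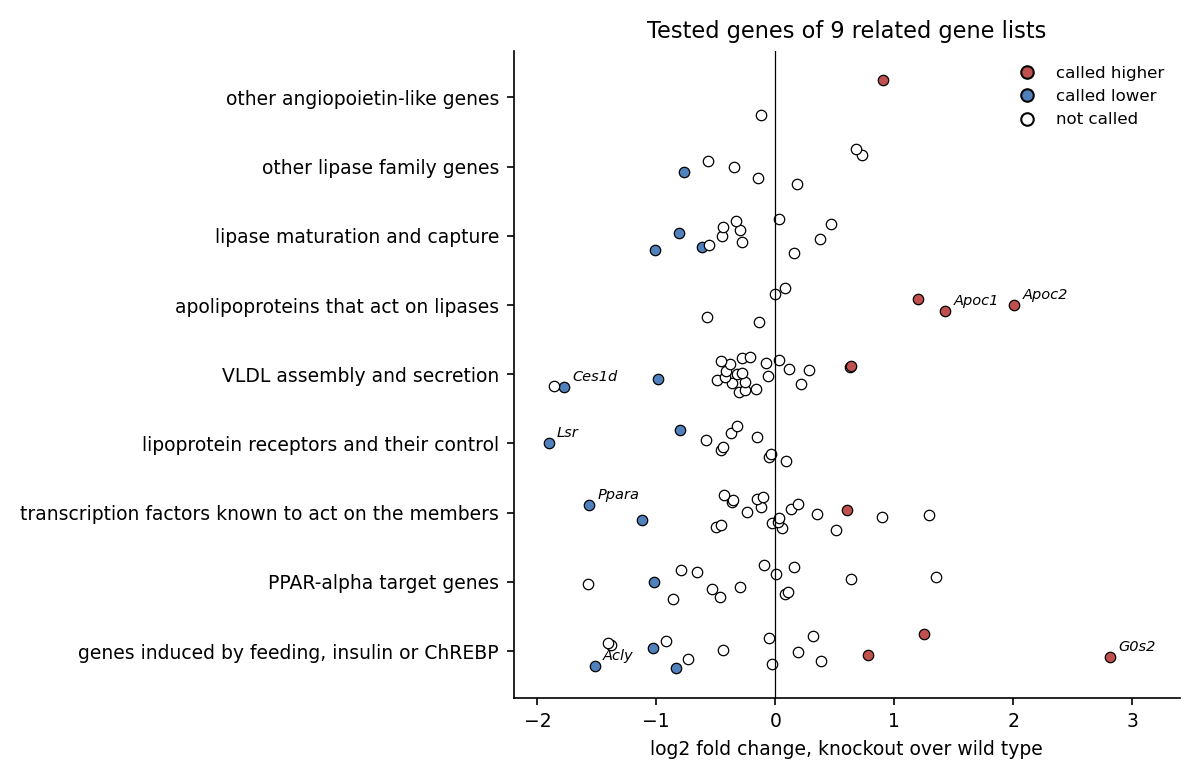
Log2 fold change, knockout over wild type (horizontal axis), of each tested gene in the 9 lists (rows); red points were called higher, blue points called lower and open points not called. Names mark called genes beyond 1.4 in either direction on the log2 scale. The apolipoprotein row holds the called rises of Apoc1, Apoc2 and Apoc3, and G0s2 lies farthest right at 2.82.

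Of the 21 called list genes picked by rule, 6 kept their call in each fit that left out 1 library: Apoc1, Ces1d, Lsr, Ppara, G0s2 and Acly. The other 15 lost it in at least 1 and at most 5 of the 6 fits, where adjusted p-values reached 0.202. The number of calls lost was 13, 11 and 0 without knockout 1, 2 and 4, and 11, 14 and 8 without wild type 2, 4 and 11. None of the 21 changed sign in these 6 fits. Without knockout 4 the VLDL list had 10 calls in place of 3, the PPAR-alpha list 6 in place of 1, and the apolipoprotein and transcription factor lists 5 each in place of 3, in a fit that called 29.4% of all tested genes. Without wild type 4 the VLDL, apolipoprotein, receptor and transcription factor lists had 1 call each and the PPAR-alpha list 0.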

How the data were processed

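The authors deposited raw counts per gene, as whole numbers with 1 column per library, from liver total RNA, per the file headers and the labels. Reads were placed on mm10, per the submitters' processing notes. An aligner, a counter, an annotation and a strand setting were not given in the sources used here. Counts were tested in R 4.3.3 with edgeR 4.0.16 (quasi-likelihood F test, TMM, filterByExpr, no covariate) over all 6 libraries. Called means a two-sided p, adjusted by Benjamini-Hochberg over all tested genes, under 0.05. SEs were obtained from the fold change and the F statistic. The fit was also run on simulated negative binomial counts, whose outcome is not reported here. They held no difference in mitochondrial share between genotypes, so the simulation does not cover that feature of the data. Coordinates, exon lengths and shared 50-base words came from GENCODE M21 (mm10) and promoters from RefSeq (GRCm38.p6).

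The 9 genes, the lists and the alternatives were chosen with earlier results of these data known. List genes were named by rule: every called gene of a list up to 4, otherwise the 4 with the smallest p; P4hb, Lmf2, Gpihbp1, Apob and Mlxipl were added after their values were seen. Some genes that the rule picked are not reported here. Alternatives were DESeq2 1.42.0, limma-voom (limma 3.58.1), other scalings and filters, a replicate block, a mitochondrial covariate and leaving out libraries. Floors cover counting error only. Pairs of libraries of 1 genotype differed far beyond sampling noise (chi-square per degree of freedom 21.0 to 171) and count as separate samples. Nothing says whether a library is 1 animal's or from which litter, beyond the labels calling each a liver of its genotype, so p-values measure only the spread between the libraries, which may be technical.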

Additional observations from a re-analysis of the deposited data

How the results depend on the processing

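With 4 of the 9 genes and 2268 of all genes called, leaving out 1 library gave 2 to 5 of the 9 and 630 to 4046 of all genes. With the mitochondrial share as a covariate 0 of the 9 and 0 of all were called, and with knockout 4 alone 0 of the 9 and 25 of all; in that fit the lone knockout is assumed to vary like the wild types. The causes were not tested. DESeq2's size factors, mitochondrial genes left out, a filter of 1 CPM in 3 libraries (which removed Vldlr), DESeq2 and limma-voom each called Angptl8, Lpl, Lmf1 and Mttp. Library totals and no low-count filter called Angptl6 as well. Without the filter the SEs of Angptl8, Lpl, Lmf1 and Mttp were 0.25, 0.22, 0.22 and 0.22, against 0.54, 0.35, 0.21 and 0.23 in the main fit. The p-values of the unfiltered fit thus follow little of each gene's own spread between libraries. Library totals moved the median of all genes to −0.16 and split the calls into 690 higher and 1566 lower, against 1165 and 1103 with TMM; relative to that median Angptl8, Lpl, Lmf1 and Mttp were at 3.86, 1.39, 1.12 and −0.92. In the lists it took the feeding and insulin genes to 2 rises and 5 falls, against 3 and 3, and the PPAR-alpha targets to 4 falls, against 1. Tm6sf2 ranged from −0.18 to 0.20 when 1 library was left out, and turned positive with limma-voom (0.0019), the replicate block (0.22), the covariate (0.10), without knockout 2 (0.03), without wild type 11 (0.20) and with knockout 4 alone (0.11). Angptl4 turned negative with the replicate block (−0.030). Numbers 2 and 4 occur in both genotypes. Deviations of same-numbered libraries from their group means correlated at −0.0597 and 0.0670, beside −0.112 to 0.0800 for libraries with unlike numbers. Such a check on 2 pairs cannot exclude a pairing, and the main fit used none. The replicate block called the same 4 of the 9 and 1686 of all genes. The numbers of knockout 1 and wild type 11 have no counterpart, so these libraries add nothing to the genotype effect in that fit. It rests on the 2 same-numbered pairs and cannot show that the calls hold over all 6 libraries. Vldlr, at 10 to 48 counts, is limited by depth.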
